A study of Mus musculus with 12 samples.

Results

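The 4 vehicle arrays of a 12-array mouse study were described here, as the baseline state of CD4+ T cells that respond to a foreign host. The 4 arrays were chosen by their treatment label alone. Each held RNA of donor CD4+ T cells from the spleen and lymph nodes of a host mouse on day 2 (48 hr) after transfer, sorted for at least 2 cell divisions. Donor spleen cells of C57Bl/6 mice, labelled with the division dye CFSE, had been injected into B6D2F1 hosts. B6D2F1 mice are first-generation hybrids that carry a foreign set of transplantation antigens besides that of C57Bl/6, so donor T cells attack the host while the host does not reject them, and a graft-versus-host response begins. The vehicle hosts received vehicle alone on days 0 and 1. The other 8 arrays came from hosts given the dioxin TCDD (15 µg/kg on day 0, 4 arrays) or the compound Cl-BBQ (2 mg/kg on both days, 4 arrays). TCDD and Cl-BBQ are ligands of the AhR, the aryl hydrocarbon receptor, which turns on genes when small molecules bind it. All mice were 10 to 12 weeks old. The labels number the arrays as biological replicates and do not say whether RNA of several hosts was pooled. Undivided donor cells and unstimulated CD4+ T cells were not analysed here, so no value below is a change brought about by the response.

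A CD4+ T cell that meets foreign class II molecules with costimulation leaves rest, enlarges and divides. It switches on growth receptors and short-lived early transcription factors, turns to rapid glucose use and nucleotide synthesis, and copies its DNA. Over the following days the daughter cells take up helper fates, each marked by a lineage factor and a set of cytokines: T-bet and interferon-γ in type 1 helper cells, GATA3 and interleukin-4 in type 2, BCL6 and interleukin-21 in follicular helpers, and FOXP3 in regulatory cells.

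Values were log2 intensities for 19938 genes, with 1 probe set per gene, and are given as mean ± SD of the 4 vehicle arrays. A gene was called above background where it exceeded, on all 4 arrays, the 95th percentile of 1203 olfactory, vomeronasal and trace amine receptor genes on that array. These are receptors of sensory neurons. The thresholds were 6.78, 6.85, 6.91 and 6.79 on vehicle 1 to 4. By this rule 11803 genes (59.2%) were above background, and 46 of the receptor genes themselves (3.82%) were too. The brightest 10.0% of genes, 1994 in number with means of at least 10.96, are called bright. Every list count below is to be read beside these shares of all genes, 59.2% above background and 10.0% bright. A signal percentile ranks a gene's mean among all genes. Probe sets bind with different strength, so a rank orders signals and not transcript numbers, and neighbours in a rank are not told apart. The vehicle arrays correlated at 0.996 to 0.997 across genes, which are not independent replicates, and no columns were identical.

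**Figure D1:**
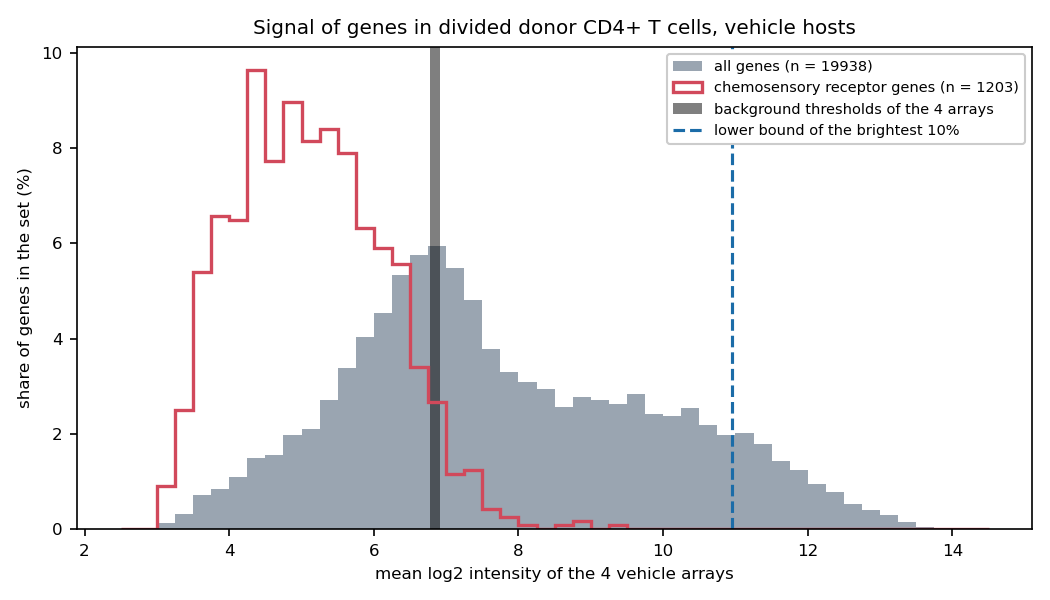
Distribution of mean log2 intensity over the 4 vehicle arrays, as the share of genes per bin, for all 19938 genes (filled) and for 1203 chemosensory receptor genes (outline). The receptor genes lie mostly to the left of the background thresholds (dark band, 6.78 to 6.91), and the dashed line marks the lower bound of the bright genes at 10.96.

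Genes of protein synthesis and the cytoskeleton gave the brightest signals. Eef1a1, the elongation factor that brings aminoacyl-tRNA to the ribosome, was first at 13.87 ± 0.02, and Actb, β-actin, measured 13.70 ± 0.01. Ribosomal protein genes took 13 of the 20 brightest places, 18 of 30 and 24 of 50. Of 53 such genes recognised by symbol, 47 were bright and 53 were above background. That family was picked out after its values were seen. Other genes among the brightest 30 were Rbm3 (13.47 ± 0.01), an RNA-binding protein, Arhgdib (13.41 ± 0.03), a regulator of small GTPases in blood cells, Tmsb10 (13.34 ± 0.05), which binds free actin, Slc25a5 (13.37 ± 0.04), which exchanges ADP and ATP across the mitochondrial membrane, and Calm2 (13.35 ± 0.04), a calmodulin gene. The glycolytic enzyme gene Ldha and the chaperone gene Hspa8 stood in the same group.

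**Figure D2:**
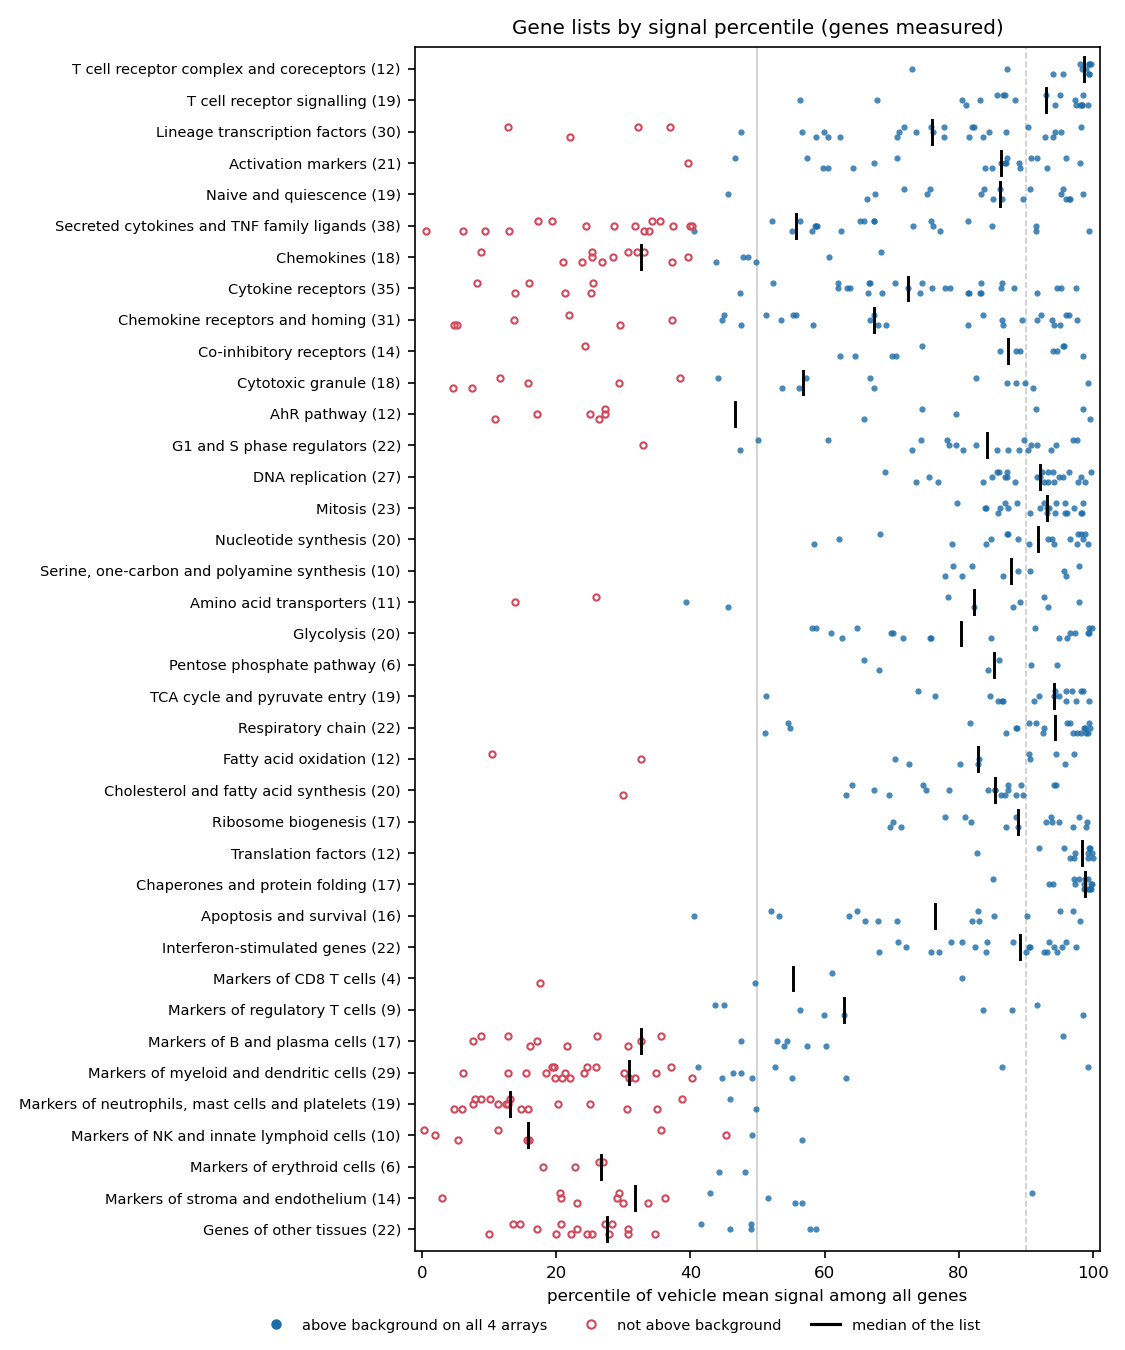
Signal percentile of every measured member of the 38 gene lists, with 1 point per gene; filled points were above background on all 4 vehicle arrays, open points were not, and the black bar is the list's median. Lists of the T cell receptor, division, mitochondria and protein synthesis lie to the right, and the lists that mark other cell types lie mostly to the left of the 50th percentile.

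Genes that define CD4+ T cells were among the brightest. In the list of T cell receptor complex and coreceptor genes, 12 of 12 were above background and 10 of 12 were bright. Cd4 measured 12.41, 12.47, 12.38 and 12.51 on vehicle 1 to 4, a mean of 12.44 ± 0.06 at percentile 98.4. The invariant chains Cd3g and Cd3e, which carry the receptor's signal into the cell, measured 13.00 ± 0.04 and 12.92 ± 0.02. Ptprc, which encodes the leukocyte phosphatase CD45, measured 13.22 ± 0.04, and Thy1, a surface protein of mouse T cells, 12.97 ± 0.06. The 4 arrays differed little for these genes, with an SD of at most 0.06 for each gene just named. The dimmest members were Cd6 at 10.61 ± 0.13 and the adaptor gene Trat1 at 9.22 ± 0.22.

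Genes that pass the receptor's signal on were all above background, 19 of 19, and 10 were bright. They included Prkcq (12.88 ± 0.05), the protein kinase C of the synapse, Lat (12.49 ± 0.09) and Lcp2 (12.45 ± 0.03), the scaffold proteins on which the signal assembles, and the kinase gene Fyn (12.43 ± 0.05). Brakes on the same pathway were bright too: Ptpn22 (12.17 ± 0.05), a phosphatase, and Cblb (12.13 ± 0.03), a ubiquitin ligase. The kinase gene Tec (7.77 ± 0.20) and the nuclear factor gene Nfatc2 (8.74 ± 0.09) were the dimmest, while the related factor Nfatc1 measured 11.54 ± 0.04.

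Markers of other cell types were mostly at background level. Above background were 7 of 17 genes of B and plasma cells, 10 of 29 of myeloid and dendritic cells, 2 of 19 of neutrophils, mast cells and platelets, 2 of 10 of natural killer and innate lymphoid cells, 2 of 6 of erythroid cells, and 5 of 14 of stroma and endothelium. All these shares lie below the 59.2% of all genes. Genes of unrelated organs, such as muscle, liver and pancreas, were above background in 6 of 22, among them Ckm (7.96 ± 0.09) and Apoa1 (7.89 ± 0.07), so a signal of that size was also reached by genes outside the lymphoid system. Among the markers not above background were Cd79a, a B cell receptor chain (6.52 ± 0.13), Ms4a1 (5.07 ± 0.20), which encodes CD20, and Lyz2, lysozyme (5.89 ± 0.12). Csf1r (6.05 ± 0.06), the receptor that macrophages depend on, and the neutrophil gene S100a8 (5.64 ± 0.12) were not above background either. Other members of these lists were, such as the B cell factor Pax5 (7.25 ± 0.09). The stricter 99th percentile of the receptor genes was exceeded on all 4 arrays by 1 of 17 B cell genes and 3 of 29 myeloid genes, compared with 43.1% of all genes. Exceptions with bright signal were Ctss (12.89 ± 0.02), a cathepsin, Cd37 (11.74 ± 0.10), a leukocyte tetraspanin, and Pecam1 (11.06 ± 0.11), an adhesion molecule, which T cells are also known to express. The mean level of the erythroid list ran from 6.39 to 6.67 over the vehicle arrays and that of the CD8 marker list from 7.55 to 8.31. For the myeloid list it ran from 6.80 to 6.94 over the vehicle arrays, from 6.85 to 6.93 over the TCDD arrays and from 6.88 to 6.95 over the Cl-BBQ arrays. In the same order of groups the B cell list ran from 6.83 to 6.95, from 6.76 to 6.84 and from 6.77 to 6.88.

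Of the CD8 markers, Cd8a set vehicle 2 apart most clearly. Cd8a, the α chain of the CD8 coreceptor, measured 7.03, 8.47, 7.00 and 6.96 on vehicle 1 to 4. Vehicle 2 stood well above the other vehicle arrays, which lay near their thresholds, and above the TCDD arrays (7.07 to 7.63) and the Cl-BBQ arrays (6.87 to 7.16). Cd8b1, the β chain, was above background on every array at 9.92, 9.90, 9.73 and 10.13, and vehicle 2 was not the highest there. Klrd1, a lectin receptor of natural killer and cytotoxic T cells, measured 8.46, 8.78, 7.77 and 7.54, with vehicle 1 and 2 above vehicle 3 and 4. Klrk1 was not above background (5.83 ± 0.20). Over the whole list 3 of 4 genes were above background, compared with 59.2% of all genes. The list's mean ran from 7.55 to 8.31 over the vehicle arrays. It ran from 7.64 to 7.84 over the TCDD arrays and from 7.73 to 7.84 over the Cl-BBQ arrays. In sorted bulk RNA, fewer cells of a type and less RNA per cell cannot be told apart.

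Most activation genes were above background. Of 21 measured, 20 (95.2%) were above background and 5 (23.8%) were bright, compared with 59.2% and 10.0% of all genes. Icos, a costimulatory receptor that activated T cells display, measured 12.26, 12.36, 12.29 and 12.38 on vehicle 1 to 4. Il2ra, the high-affinity chain of the interleukin-2 receptor (CD25), measured 11.43, 10.90, 11.31 and 11.03, where vehicle 2 was lowest and vehicle 1 highest. Egr2, an early transcription factor that follows receptor engagement, measured 11.81, 11.90, 11.88 and 11.67. The values of Icos and Egr2 lay close together across arrays, whereas those of Il2ra spread more widely. The transferrin receptor gene Tfrc (11.35 ± 0.15), which brings in iron for growth, and Cd40lg (11.04 ± 0.15), through which helper cells instruct B cells and dendritic cells, were bright as well. Below the bright bound were Myc (10.82 ± 0.12), the driver of growth metabolism, Nr4a1 (10.52 ± 0.14), an immediate early nuclear receptor, and the early surface marker Cd69 (10.27 ± 0.13). The costimulatory receptor genes Tnfrsf18, Tnfrsf9 and Tnfrsf4 (GITR, 4-1BB and OX40) measured 10.61 ± 0.13, 10.60 ± 0.20 and 10.39 ± 0.16. Cd44, the adhesion molecule that marks antigen-experienced cells, was at percentile 67.3 (8.68 ± 0.09). The AP-1 subunit Fos (7.85 ± 0.10) and the nuclear receptor Nr4a2 (7.21 ± 0.19) were dim, and Fosl2 was above background on 2 of 4 arrays.

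Genes known from naive and resting T cells were present at the same time. All 19 of 19 were above background and 7 were bright. Satb1, a chromatin organiser, measured 12.51 ± 0.08, and Lef1, a transcription factor of immature and naive T cells, 11.68 ± 0.11. Ccr7, the chemokine receptor for entry into lymph nodes, measured 11.99, 11.97, 11.82 and 11.85 on vehicle 1 to 4. S1pr1, the receptor for exit from them, measured 11.75, 12.06, 11.73 and 11.82, highest on vehicle 2. Both homing receptors were thus bright on every array. Dapl1, which is named here as a member of the naive list, measured 11.94 ± 0.07. Il7r, the survival receptor of resting T cells, measured 10.30, 10.59, 10.11 and 9.82, and it was highest on vehicle 2 and lowest on vehicle 4. The quiescence factors Foxo1 (10.50 ± 0.05), Klf2 (9.47 ± 0.13) and Tob1 (9.43 ± 0.11) were above background, and Klf4 was the dimmest member at 7.17 ± 0.13.

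Among 30 lineage transcription factor genes, 26 were above background and 6 were bright. Ikzf1 (12.38 ± 0.06) and Ikzf3 (11.68 ± 0.07), zinc finger factors of lymphocytes, Stat4 (11.54 ± 0.04), which relays interleukin-12, Stat3 (11.49 ± 0.04), which relays interleukin-6 and interleukin-21, Tox (11.31 ± 0.16) and Batf (11.00 ± 0.04) made up the bright members. The factors that define separate helper fates, Gata3, Bcl6, Tbx21 and Foxp3, were all above background. Bulk RNA does not tell whether the same cells held them. Gata3 measured 9.65, 9.73, 9.54 and 9.68 on vehicle 1 to 4. Bcl6, the repressor of follicular helper cells, measured 9.38, 9.56, 9.27 and 9.73. Tbx21, which encodes T-bet, measured 8.50, 8.43, 8.07 and 7.99. Gata3 was even across arrays, Bcl6 was highest on vehicle 4, and Tbx21 was higher on vehicle 1 and 2 than on vehicle 3 and 4. Foxp3 measured 7.96, 8.18, 8.11 and 7.94, a narrow range at percentile 59.9. Maf (9.01 ± 0.05), which drives interleukin-10 and interleukin-21, and Irf4 (10.33 ± 0.15), a factor of effector differentiation, were also above background. So were Prdm1 (7.95 ± 0.20), which encodes Blimp-1, Rora (8.09 ± 0.17) and Eomes (7.80 ± 0.28). The receptor genes' 99th percentile was exceeded on all 4 arrays by 23 of the 30 genes, compared with 43.1% of all genes. Prdm1 and Eomes fell short of it on vehicle 3. Zbtb7b, the factor that fixes the CD4 fate, measured 9.65 ± 0.09, and Runx3, which is tied to the CD8 fate and to type 1 helpers, 10.06 ± 0.09. The innate T cell factor Zbtb16 (6.79 ± 0.13), the myeloid factor Spi1 (6.10 ± 0.12) and the B cell factor Ebf1 (5.49 ± 0.04) were not above background, nor was Hlx (6.58 ± 0.15), whereas Pax5, also a B cell factor, was above background on all 4 arrays (7.25 ± 0.09).

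**Figure D3:**
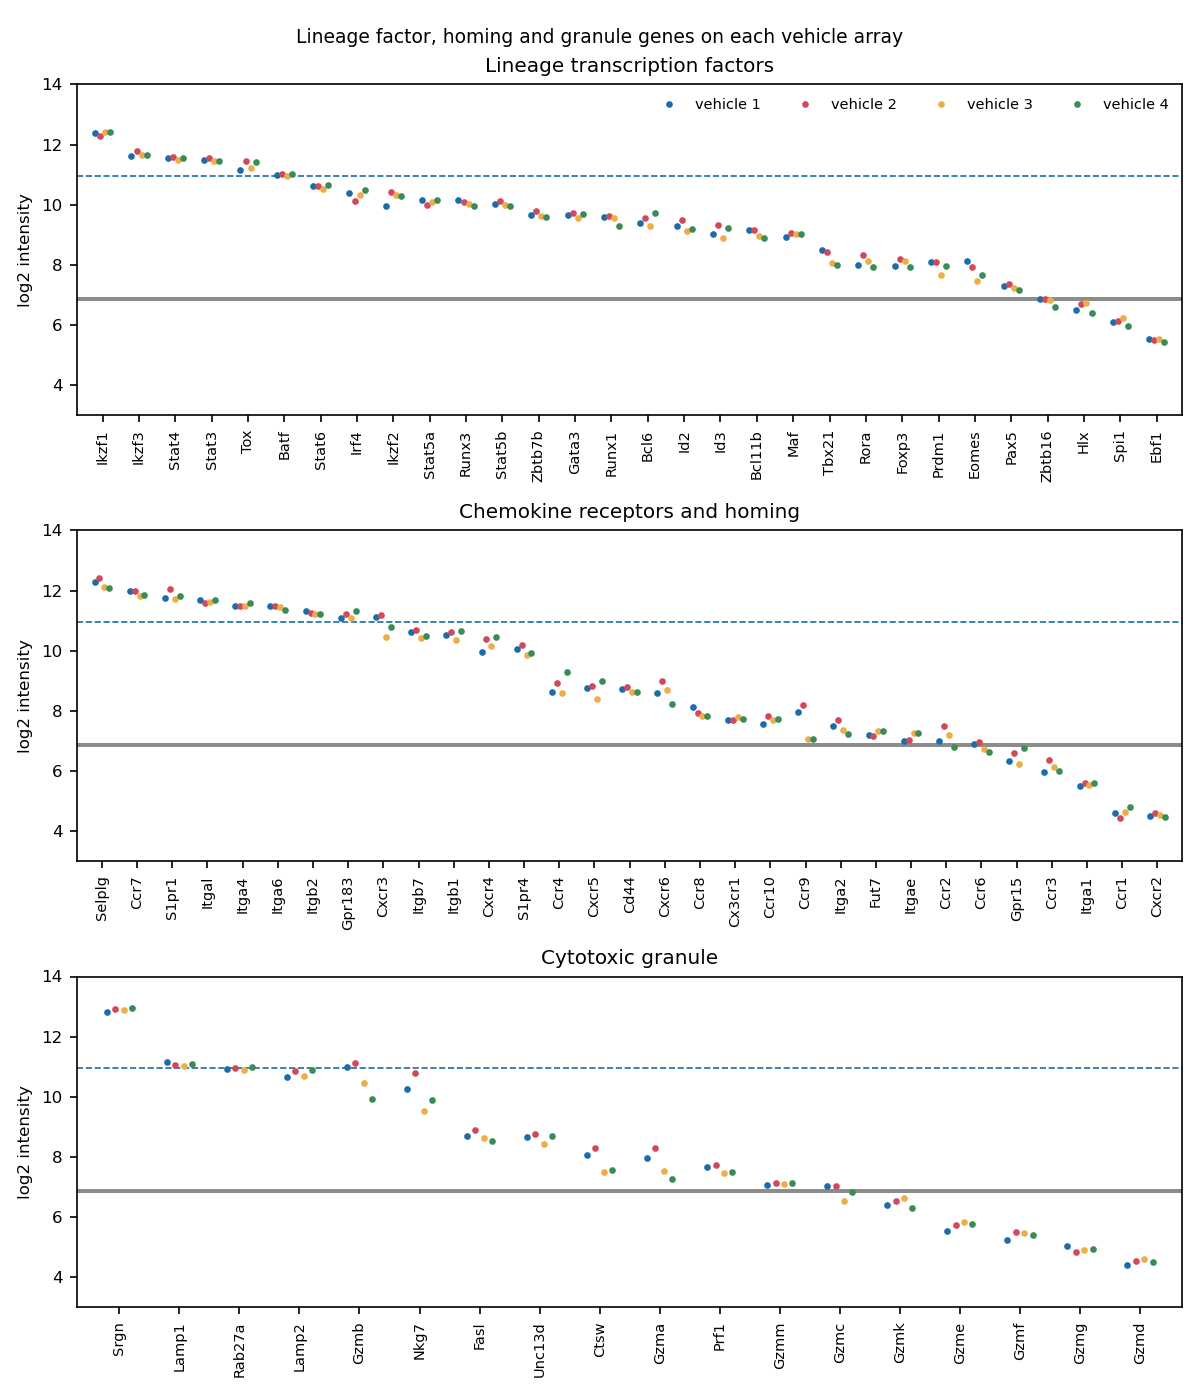
Log2 intensity on each of the 4 vehicle arrays (coloured points) for lineage transcription factors, chemokine receptor and homing genes, and cytotoxic granule genes, ordered by mean; the grey band spans the background thresholds and the dashed line is the lower bound of bright genes. Granule genes such as Gzmb, Nkg7 and Gzma and the receptor genes Cxcr3 and Ccr9 spread over the arrays, as do the lineage factors Eomes and Tbx21. The median SD was 0.128 in the granule list and 0.121 in the lineage list.

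Cytokine genes fell into clearly different bands. Of 38 secreted cytokine and TNF family genes, 22 were above background, a share close to that of all genes (59.2%). Bright were 3 (7.89%, near the 10.0% of all genes): Mif (12.95 ± 0.12), a factor made by many cell types, Lif (11.15 ± 0.18), a cytokine of the interleukin-6 family, and Tnfsf8 (11.14 ± 0.11), the CD30 ligand. Ltb (10.38 ± 0.25), which shapes lymphoid tissue, Tnf (10.01 ± 0.22) and Tnfsf11 (9.60 ± 0.14), which encodes RANKL, came next in order of signal. Il21, which helps B cells and sustains T cells, measured 9.37, 9.20, 9.40 and 10.07 on vehicle 1 to 4. Vehicle 4 was the highest of the arrays for it. Ifng, the type 1 helper cytokine interferon-γ, measured 8.01, 8.52, 7.52 and 7.76. On vehicle 3 it did not exceed the 99th percentile of the receptor genes (7.75). Penk, which encodes the opioid precursor proenkephalin, measured 7.96, 8.54, 7.53 and 7.72. For Ifng and Penk alike, vehicle 2 was highest and vehicle 3 lowest. Il10, an anti-inflammatory cytokine, measured 8.53, 8.81, 8.39 and 8.24, and Tgfb1, which restrains T cells, 9.43, 9.54, 9.37 and 9.54.

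Il2, the growth factor of T cells, was above background and dim, at 7.44, 7.44, 7.42 and 7.68 on vehicle 1 to 4. On vehicle 1, 2 and 3 it did not exceed the stricter threshold of the receptor genes' 99th percentile. That threshold was exceeded on all 4 arrays by 8592 genes (43.1%). Of the helper cytokine genes, Il13 was above background at 7.69 ± 0.04 but did not exceed the stricter threshold on vehicle 3. Il4 and Il17f lay near the background threshold. Il4 measured 6.87, 6.86, 6.77 and 7.19 and exceeded it on 3 of 4 arrays, and Il17f measured 6.94 ± 0.04. Il17a (6.72 ± 0.08), Il5 (5.94 ± 0.18), Il9 (6.23 ± 0.10), Il3 (4.73 ± 0.31), Il6 (3.54 ± 0.11) and Csf2 (5.50 ± 0.05), which encodes GM-CSF, were above background on 0 of 4 arrays. A probe set that is not above background gives only an upper bound of its signal and does not show that a transcript was absent.

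**Figure D4:**
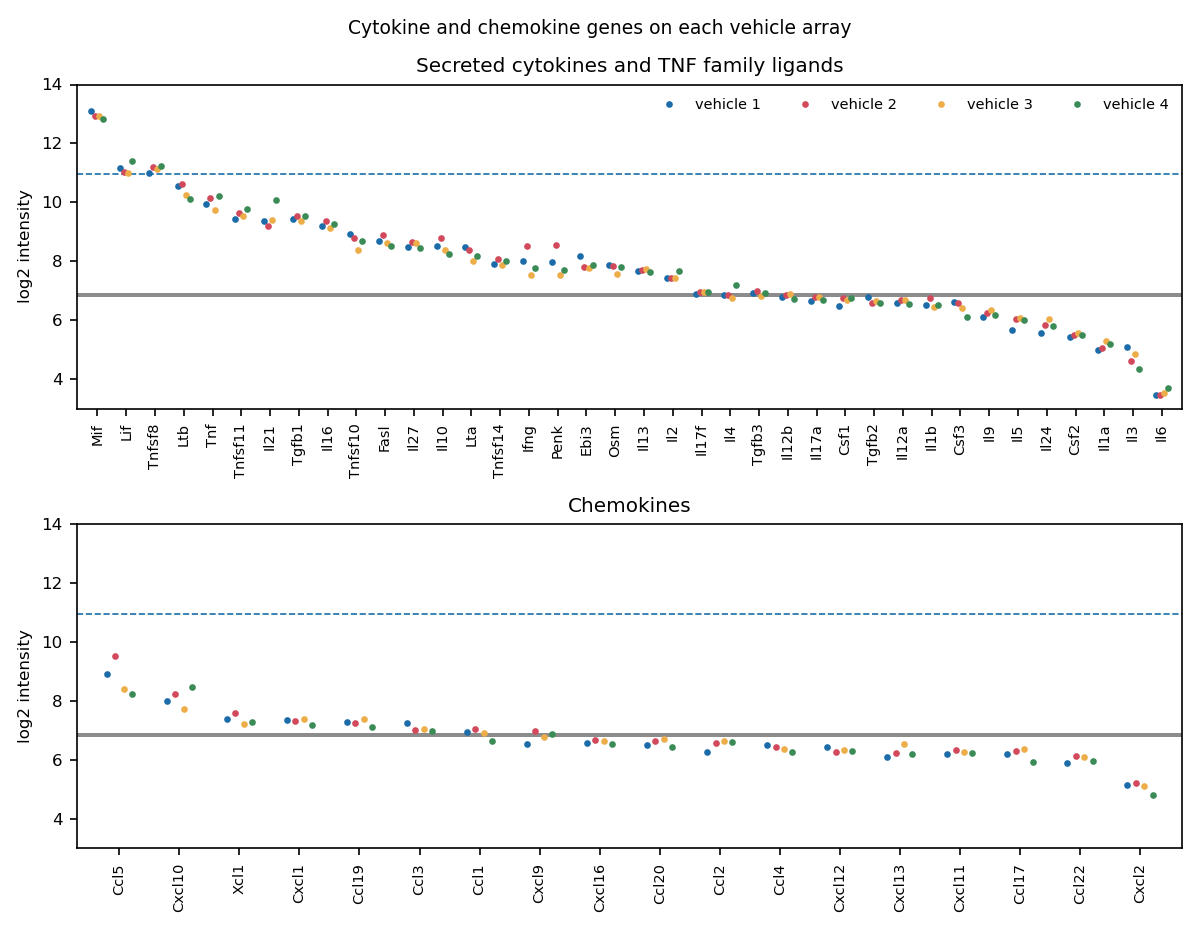
Log2 intensity on each of the 4 vehicle arrays (coloured points) for 38 cytokine and TNF family genes and 18 chemokine genes, ordered by mean; the grey band spans the background thresholds and the dashed line is the lower bound of bright genes. Against each array's own threshold, 22 of the cytokine genes and 6 of the chemokine genes were above background on all arrays.

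Most chemokine genes were at background level: 6 of 18 were above it, compared with 59.2% of all genes, and 0 were bright. Ccl5, which attracts T cells and monocytes, measured 8.94, 9.54, 8.42 and 8.26 on vehicle 1 to 4, a range of more than 1 log2 unit with vehicle 2 highest. Cxcl10, an interferon-induced ligand of CXCR3, measured 7.99, 8.24, 7.72 and 8.48. Xcl1, which attracts cross-presenting dendritic cells, measured 7.39, 7.58, 7.22 and 7.28. Ccl5 was the only member of the 6 to pass the 99th percentile threshold on all 4 arrays, which 43.1% of all genes did. Ccl4 (6.42 ± 0.10), Ccl22 (6.04 ± 0.10) and Cxcl2 (5.08 ± 0.17) were not above background.

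Cytokine receptor genes were above background in 29 of 35 (82.9%, compared with 59.2% of all genes). Bright were 4 (11.4%), near the 10.0% of all genes. The shared signal chain Il6st (gp130) measured 12.19 ± 0.05, Ifnar2, a chain of the type I interferon receptor, 11.68 ± 0.12, and Il2rb, the signalling chain for interleukin-2 and interleukin-15, 11.59 ± 0.08. Receptors for interferon-γ (Ifngr1, 10.73 ± 0.08), interleukin-4 (Il4ra, 10.54 ± 0.19), transforming growth factor β (Tgfbr2, 10.02 ± 0.09), interleukin-6 (Il6ra, 10.01 ± 0.08) and interleukin-21 (Il21r, 9.73 ± 0.13) followed. Il12rb2, the inducible chain through which interleukin-12 acts, measured 9.54, 9.01, 8.93 and 9.15 on vehicle 1 to 4, and vehicle 1 was the highest. Il18r1 (8.23 ± 0.28) and Il18rap (7.51 ± 0.21), which form the interleukin-18 receptor, were dimmer. Il23r (5.72 ± 0.24), Il5ra, Csf2rb (6.28 ± 0.07) and Il1r2 (6.26 ± 0.08) were not above background.

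Of 31 chemokine receptor and homing genes, 25 (80.6%) were above background and 8 (25.8%) were bright, compared with 59.2% and 10.0% of all genes. Adhesion genes of all lymphocytes led: Selplg (12.23 ± 0.15), the ligand of P-selectin, Itgal (11.65 ± 0.06) and Itgb2 (11.25 ± 0.05), the chains of LFA-1, and Itga4 (11.51 ± 0.05), which pairs with Itgb7 (10.55 ± 0.12) for entry into the gut. Cxcr3, the receptor that leads type 1 helper cells to inflamed tissue, measured 11.13, 11.20, 10.45 and 10.80 on vehicle 1 to 4, with vehicle 3 lowest. Ccr9, a gut homing receptor, measured 7.97, 8.20, 7.07 and 7.07. Vehicle 1 and 2 lay about 1 log2 unit above vehicle 3 and 4, which were just over their thresholds. The TCDD arrays ranged from 9.78 to 10.76 for Ccr9 and the Cl-BBQ arrays from 8.61 to 10.23, above all 4 vehicle arrays. Gpr15, a receptor for the large intestine, measured 6.31, 6.59, 6.21 and 6.75 and was above background on 0 vehicle arrays. Cxcr5, which leads follicular helpers to B cells, measured 8.75 ± 0.25, Ccr4 8.86 ± 0.33 and Cxcr6 8.63 ± 0.32. Ccr6 (6.80 ± 0.15), known from type 17 helpers, was above background on 2 of 4 arrays, and Ccr1 (4.62 ± 0.16) and Cxcr2 (4.52 ± 0.06) on 0.

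Co-inhibitory receptor genes were above background in 13 of 14 (92.9%), and 5 (35.7%) were bright, compared with 59.2% and 10.0% of all genes. Ctla4, which competes with CD28 for its ligands, measured 12.54, 12.56, 12.48 and 12.31 on vehicle 1 to 4. Pdcd1, which encodes PD-1, measured 10.36, 10.53, 10.37 and 10.69. Nt5e, which encodes CD73, an enzyme that makes adenosine, measured 10.40, 11.06, 10.65 and 11.25. Vehicle 4 was lowest for Ctla4 and highest for Pdcd1, and both genes varied less than Nt5e. Nt5e was higher on vehicle 2 and 4 than on vehicle 1 and 3. Btla (11.76 ± 0.10), Cd200 (11.58 ± 0.16) and Cd96 (11.49 ± 0.17) were bright, while Tigit (10.77 ± 0.26), Lag3 (9.36 ± 0.10) and Havcr2 (8.99 ± 0.19), which encodes TIM-3, were not. Klrg1, a receptor of late effector cells, was not above background (6.22 ± 0.29).

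The markers of regulatory T cells were above background in 9 of 9, compared with 59.2% of all genes. Several of these, including Ctla4 and Il2ra, are also known from activated conventional cells. Ikzf2, which encodes Helios, measured 9.94, 10.44, 10.33 and 10.28 on vehicle 1 to 4. Nrp1, a surface marker of thymic regulatory cells, measured 8.04, 8.50, 7.90 and 8.74, with vehicle 2 and 4 highest. Lrrc32 (7.07 ± 0.05), which anchors latent transforming growth factor β, and Itgae (7.14 ± 0.16), which encodes CD103, were near the threshold. The mean of the list ran from 9.16 to 9.27 over the vehicle arrays.

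Cytotoxic granule genes were above background in 12 of 18, close to the 59.2% of all genes, and the list held several of the most variable genes. Gzmb, the granzyme that cuts caspases, measured 10.98, 11.11, 10.44 and 9.92 on vehicle 1 to 4. Nkg7, a granule membrane protein, measured 10.25, 10.78, 9.53 and 9.89. Gzma, another granule protease, measured 7.96, 8.30, 7.54 and 7.26. In all 3 genes vehicle 1 and 2 lay above vehicle 3 and 4. Prf1, which encodes the pore protein perforin, measured 7.65, 7.71, 7.46 and 7.51, also highest on vehicle 2 but over a narrower range. The CD8 marker list was highest on vehicle 2 as well, and its part in the granule values was not tested. Srgn (12.89 ± 0.06), the proteoglycan that packs granules in many blood cells, and the lysosomal gene Lamp1 (11.08 ± 0.06) were bright. Gzmc exceeded the threshold on 3 of 4 arrays, and Gzmk (6.46 ± 0.14), Gzme, Gzmf, Gzmg and Gzmd on 0.

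Genes of the AhR itself were above background on the vehicle arrays, and most of its known target genes were not. Of 12 genes measured, 6 were above background, a share near the 59.2% of all genes, and 10 with the looser threshold of the receptor genes' median plus 1 log2 unit. These were the receptor Ahr (8.51, 8.61, 8.42 and 8.68 on vehicle 1 to 4), its partner Arnt (9.82 ± 0.03), the chaperones Hsp90aa1 (13.04 ± 0.03) and Ptges3 (12.49 ± 0.08) that hold it in the cytoplasm, the antioxidant factor gene Nfe2l2 (11.15 ± 0.08), and Tiparp (9.36 ± 0.09), an ADP-ribosyltransferase and known target. The target genes Cyp1a1 (6.36 ± 0.11), Cyp1b1 (6.36 ± 0.14), Nqo1 (6.32 ± 0.18) and Ahrr (5.80 ± 0.06) were above background on 0 of 4 arrays. Cyp1b1 ranged from 9.67 to 9.92 over the TCDD arrays and from 5.93 to 8.24 over the Cl-BBQ arrays. With the same rule, 9 of the 12 genes were above background on the TCDD arrays and 6 on the Cl-BBQ arrays.

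Interferon-stimulated genes were above background in 22 of 22, and 11 were bright. Among them were Zbp1 (12.18 ± 0.06) and Ifih1 (11.83 ± 0.09), sensors of foreign nucleic acid, the GTPase gene Gbp4 (11.70 ± 0.02), and Ifit3 (11.57 ± 0.11) and Ifit1 (11.50 ± 0.14), which hold back viral RNA. Bst2, which tethers virus particles, measured 10.64, 10.42, 10.07 and 10.10 on vehicle 1 to 4. The Mx1 (9.13 ± 0.15) and Oasl1 (8.76 ± 0.19) signals were the lower end of the list. Vehicle 2 was highest in 17 of 22 genes and vehicle 3 lowest in 14 of 22. Over all genes these shares were 27.3% and 30.1%.

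Division genes gave some of the brightest signals outside the ribosome. All 27 of 27 DNA replication genes were above background and 15 were bright, as were 23 of 23 and 15 of the mitosis genes. Pcna, the sliding clamp of DNA polymerase, measured 13.25, 13.19, 13.27 and 13.24 on vehicle 1 to 4. Top2a, which untangles copied chromosomes, measured 12.61 ± 0.12, although another probe set of this gene gave 5.87 ± 0.59 and was not above background. Mcm6, a subunit of the helicase that opens the DNA, measured 12.50, 12.26, 12.38 and 12.49, with vehicle 2 lowest. Mad2l1 (12.50 ± 0.07), of the spindle checkpoint, Ccnb2 (12.44 ± 0.10), a mitotic cyclin, Birc5 (12.39 ± 0.03), which encodes survivin, and Kif11 (12.09 ± 0.11), a spindle motor, were bright, and Cdc25c (9.84 ± 0.26) was the dimmest mitosis gene.

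Among regulators of the G1 and S phases, 21 of 22 were above background and 7 were bright. Ccna2 (12.21 ± 0.08), the cyclin of S phase, Cdk4 (12.04 ± 0.16) and Ccnd2 (11.56 ± 0.08), which start the cycle, and E2f8 (11.43 ± 0.18), a repressor made in S phase, were bright. The D cyclin genes had different signals, with Ccnd3 at 9.69 ± 0.12 and Ccnd1 near the threshold at 7.25 ± 0.13. The inhibitor Cdkn1b, which holds resting T cells in check, measured 9.94 ± 0.18. Cdkn2a was the member that was not above background (6.61 ± 0.10).

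The promoters of these genes carried different motifs. E2F factors, which the retinoblastoma protein holds back until the cell commits to S phase, bind sites such as TTTCCCGC, TTTGGCGC, TTTCGCGC and TTTGCCGC. The factor NF-Y binds CCAAT. Both sets were searched for on both strands of 300-base promoter windows from RefSeq (build GRCm38.p6), where overlapping matches counted separately and 15614 of the 19938 genes had a window. An E2F-type motif was found in 574 of the 19177 windows of these 15614 genes (2.99%), in 11 of 27 windows of the DNA replication genes (40.7%), in 8 of 22 of the G1 and S regulators (36.4%) and in 0 of 19 of the mitosis genes. CCAAT was found in 37.4% of the windows of all measured genes, in 63.0% of the DNA replication windows, in 54.5% of the G1 and S windows and in 78.9% of the mitosis windows. A match describes the letters in the window and does not show that a factor was bound. The 3 replication promoters shown here have the most E2F-type matches and the 2 mitosis promoters the most CCAAT matches, with ties broken by the gene's signal. Each shows the 250 bases before the start site, 5′ to 3′ on the gene's strand. Capitals mark E2F-type matches alone in the replication promoters and CCAAT matches, on either strand, alone in the mitosis promoters. The 3 replication promoters hold CCAAT matches too, left in lower case: 2 in Mcm6, 2 in Mcm5 and 1 in Pola1. Mcm6 lies at chr1:128359706-128359955 on the minus strand, Mcm5 at chr8:75109259-75109508 on the plus strand, Pola1, the catalytic subunit of DNA polymerase α, at chrX:93632156-93632405 on the minus strand, Ube2c, an enzyme that marks cyclins for destruction, at chr2:164769679-164769928 on the plus strand, and Ccnb2 at chr9:70421555-70421804 on the minus strand.
Mcm6: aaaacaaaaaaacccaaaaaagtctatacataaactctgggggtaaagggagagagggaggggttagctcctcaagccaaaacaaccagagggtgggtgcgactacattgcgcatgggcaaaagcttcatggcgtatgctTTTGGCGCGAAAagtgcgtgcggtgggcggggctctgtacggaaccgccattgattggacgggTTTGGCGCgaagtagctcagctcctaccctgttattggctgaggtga
Mcm5: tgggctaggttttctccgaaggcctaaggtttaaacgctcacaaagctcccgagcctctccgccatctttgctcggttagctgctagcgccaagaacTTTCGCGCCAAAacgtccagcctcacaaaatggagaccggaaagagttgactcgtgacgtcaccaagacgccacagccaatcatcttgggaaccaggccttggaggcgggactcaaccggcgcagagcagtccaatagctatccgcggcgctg
Pola1: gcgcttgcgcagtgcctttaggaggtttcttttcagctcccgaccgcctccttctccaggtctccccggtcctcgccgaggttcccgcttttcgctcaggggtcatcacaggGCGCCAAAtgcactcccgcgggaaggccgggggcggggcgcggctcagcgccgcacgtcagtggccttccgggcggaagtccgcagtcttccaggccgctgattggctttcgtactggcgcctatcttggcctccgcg
Ube2c: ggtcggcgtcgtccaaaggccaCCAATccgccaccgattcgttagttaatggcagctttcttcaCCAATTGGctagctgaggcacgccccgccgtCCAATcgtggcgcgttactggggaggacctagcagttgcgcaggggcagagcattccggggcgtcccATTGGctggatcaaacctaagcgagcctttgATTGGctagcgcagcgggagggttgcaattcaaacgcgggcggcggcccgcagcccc
Ccnb2: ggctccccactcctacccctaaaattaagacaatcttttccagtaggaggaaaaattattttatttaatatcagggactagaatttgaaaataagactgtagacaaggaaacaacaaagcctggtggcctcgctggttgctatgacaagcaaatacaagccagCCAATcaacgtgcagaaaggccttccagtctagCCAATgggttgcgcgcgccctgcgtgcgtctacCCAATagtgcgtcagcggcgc

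The Mcm6 sequence has 3 E2F-type matches, of which 2 overlap, the Mcm5 sequence has 2, which overlap each other, and the Pola1 sequence 1. The Ube2c sequence has 6 CCAAT matches on either strand, of which 2 overlap, and the Ccnb2 sequence 3. On the vehicle arrays Mcm5 measured 11.44, 11.09, 11.20 and 11.41, Pola1 11.45, 11.15, 11.47 and 11.40 and Ube2c 10.59, 10.44, 10.62 and 10.71. All 3 were lowest on vehicle 2. Across the genome, the share of windows with an E2F-type motif was 5.98% for bright genes, 3.56% for genes above background but not bright, and 1.37% for genes not above background. The share with CCAAT was nearly the same in these bands, at 37.0%, 37.3% and 37.6%. Windows of the ribosome biogenesis genes held an E2F-type motif in 4 of 16 (25.0%), those of the T cell receptor list in 0 of 8 and those of the glycolysis list in 0 of 29.

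Genes of nucleotide and one-carbon synthesis were all above background, 20 of 20 and 10 of 10, with 11 and 4 bright. Paics (12.89 ± 0.07) and Atic (12.27 ± 0.13) build purines, and Rrm1 (12.47 ± 0.11) and Rrm2 (12.40 ± 0.12) turn ribonucleotides into the units of DNA. Shmt2, the mitochondrial enzyme that draws one-carbon units from serine, measured 11.09, 10.42, 10.80 and 10.94 on vehicle 1 to 4. Odc1, the first enzyme of polyamine synthesis, measured 12.48, 12.03, 12.32 and 12.39. Both were lowest on vehicle 2. Mthfd2 (11.84 ± 0.09) of the same mitochondrial pathway and Psat1 (11.77 ± 0.08) of serine synthesis were bright. Amino acid transporters were above background in 9 of 11. Slc38a1 (12.28 ± 0.08) and Slc1a5 (11.36 ± 0.10), which carry glutamine, were bright, Slc7a5 (10.71 ± 0.19), which carries leucine, lay just below, and Slc7a11 (5.56 ± 0.05), the cystine transporter, was not above background.

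Glycolysis genes were above background in 20 of 20, and 9 were bright. Ldha, which makes lactate, measured 13.46, 13.39, 13.33 and 13.41 on vehicle 1 to 4. Hk1, a hexokinase found in most tissues, measured 12.87, 13.07, 13.07 and 13.01, while the inducible hexokinase gene Hk2 measured 8.59, 8.08, 8.08 and 8.32. Vehicle 1 was highest for Ldha and Hk2 but lowest for Hk1. Another probe set of Hk1 gave 10.71 ± 0.09, below the bright band. Pgk1 (12.90 ± 0.06), Aldoa (12.86 ± 0.10) and Pkm (11.96 ± 0.10) of the lower pathway were bright, as was Hif1a (12.12 ± 0.03), which drives it under low oxygen. The glucose transporter genes Slc2a1 and Slc2a3 measured 10.37 ± 0.22 and 8.13 ± 0.12. Slc16a3, a lactate exporter, was the dimmest member at 7.91 ± 0.06.

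Mitochondrial genes were above background throughout: 19 of 19 genes of the TCA cycle and pyruvate entry, with 12 bright, and 22 of 22 of the respiratory chain, with 15 bright. Mdh2 (12.89 ± 0.07), Sdha (12.48 ± 0.05) and Cs (12.40 ± 0.05) of the cycle and Atp5b (13.09 ± 0.03) and Cycs (12.68 ± 0.14) of the chain were among the highest, although another probe set of Cycs gave 7.31 ± 0.26. The muscle isoform genes Cox6a2 (7.64 ± 0.08) and Cox7a1 (7.43 ± 0.08) were the dimmest. In fatty acid oxidation 10 of 12 were above background, led by Hadha (12.11 ± 0.04), and the regulators Ppara (6.60 ± 0.16) and Ppargc1a (5.28 ± 0.13) were not. In cholesterol and fatty acid synthesis 19 of 20 were above background. Bright were 2, the same 10.0% as over all genes: Fdft1 (11.55 ± 0.10) and Cyp51 (11.52 ± 0.08), both of the sterol branch. Scd1 was not above background (6.48 ± 0.18). All 6 of 6 pentose phosphate genes were above background, led by Pgd (11.60 ± 0.17).

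Protein folding and synthesis lists had high medians, as did the T cell receptor complex, whose median percentile of 98.6 lay between the pair of values that follow. Chaperone genes were above background in 17 of 17 with 16 bright and a median percentile of 98.8, and translation factors in 12 of 12 with 11 bright and a median percentile of 98.3. Hspa8 (13.39 ± 0.05), the constant cytosolic heat shock protein, and Hspd1 (13.09 ± 0.07) and Hspe1 (13.19 ± 0.05), the mitochondrial folding chamber, were in the brightest 1% of genes. In ribosome biogenesis 17 of 17 were above background, led by the nucleolar genes Npm1 (12.76 ± 0.11) and Ncl (12.70 ± 0.07), and Polr1b (8.91 ± 0.22), of the polymerase that makes ribosomal RNA, was the dimmest. Apoptosis and survival genes were above background in 16 of 16 with 4 bright. Mcl1 (12.06 ± 0.07) and Cflar (11.66 ± 0.12), which oppose death, and Casp8 (12.36 ± 0.07) and Bak1 (10.98 ± 0.09), which carry it out, were the bright members, though 1 other probe set of Cflar lay below that band (10.24 ± 0.11), and the p53 target Bbc3 (6.94 ± 0.05) was at the threshold.

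The spread between vehicle arrays was small for most genes. Over genes above background the median SD was 0.10 and the 95th percentile 0.217, and an SD over 0.3 was found for 120 genes (1.02%) and over 0.5 for 18. Bright genes had a median SD of 0.0704. The 15 genes with the largest SD fell into separate patterns. Phxr4 varied most, at 7.74, 8.32, 9.80 and 7.52 on vehicle 1 to 4. Stfa3, a stefin gene, measured 7.24, 9.18, 7.14 and 8.20. Cybb, the phagocyte oxidase subunit, measured 7.58, 8.32, 7.52 and 8.77. Vehicle 3 was the high array for Phxr4, vehicle 2 for Stfa3, and vehicle 4 and 2 for Cybb. Of the 15, 7 were highest on vehicle 2 (Stfa3, Cd8a, Ccr9, Klrd1, Ccl5, S100a4 and Gzmb), 6 on vehicle 3 (Phxr4, Adam4, Gm10825, Insyn2b, H60b and Kcnj13) and 2 on vehicle 4 (Sccpdh and Cybb). Without vehicle 2, 9 of the 15 stayed among the top 15, and Cd8a, Ccr9, Klrd1, Ccl5, S100a4 and Gzmb dropped out. Without vehicle 3, 9 stayed, and Phxr4, Adam4, Gm10825, Insyn2b, H60b and Kcnj13 dropped out. Without vehicle 1, 13 stayed, and without vehicle 4, 10.

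In several gene lists most members were highest or lowest on the same array. Members of a list are not independent replicates, and 0 of the 38 list means had an array that stood far from the other 3. Vehicle 2 was lowest in 24 of 27 DNA replication genes, 18 of 23 mitosis genes, 16 of 20 nucleotide synthesis genes, 9 of 10 serine, one-carbon and polyamine genes, 16 of 17 ribosome biogenesis genes and 13 of 17 chaperone genes. Over all genes vehicle 2 was lowest in 21.1%. The mean deviation of the DNA replication list from its 4-array mean was 0.13, -0.17, -0.07 and 0.11 log2 on vehicle 1 to 4, and that of the mitosis list was highest on vehicle 4, at 0.14. In the opposite direction, vehicle 2 was highest in 14 of 19 genes of the naive and quiescence list, 17 of 30 lineage factors, 17 of 22 interferon-stimulated genes and 9 of 18 granule genes. The share over all genes was 27.3%. Vehicle 1 was highest in 16 of 20 nucleotide synthesis genes, 15 of 20 glycolysis genes and 12 of 20 genes of cholesterol and fatty acid synthesis, beside 24.9% of all genes. The CD8 marker list deviated most of all lists, by 0.50 log2 on vehicle 2, and its part in the other differences of vehicle 2 was not tested. The mean over all genes deviated by at most 0.013 log2 on any array.

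**Figure D5:**
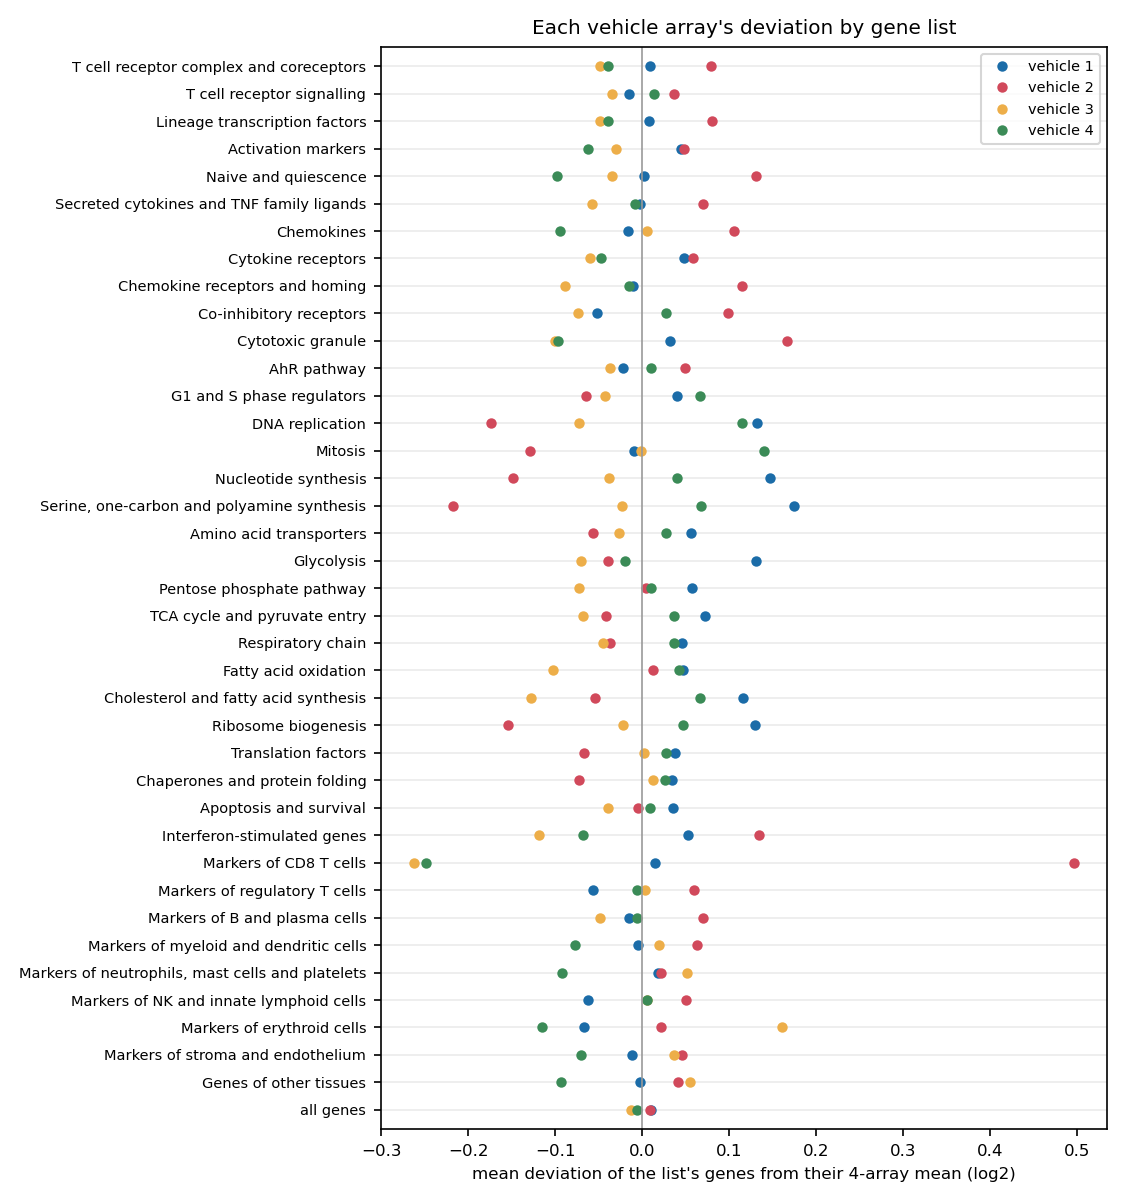
Mean deviation (log2) of each gene list from its own 4-array mean on vehicle 1 to 4 (coloured points). Vehicle 2 lies lowest for lists of DNA replication, mitosis, nucleotide synthesis and ribosome biogenesis and highest for naive, interferon-stimulated, granule and CD8 marker lists; the points for all genes lie together at 0.

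The size of the list shifts differed between groups. The mean of the DNA replication list ranged over 0.31 log2 across the vehicle arrays, 0.19 across the TCDD arrays and 0.40 across the Cl-BBQ arrays. For the mitosis list the ranges were 0.27, 0.10 and 0.10, and for the interferon-stimulated genes 0.25, 0.08 and 0.21. The naive and quiescence list ranged over 0.23, 0.19 and 0.27, ribosome biogenesis over 0.28, 0.07 and 0.17, and the CD8 markers over 0.76, 0.21 and 0.11. No test of these ranges was made.

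The set of genes above background was nearly the same in the other groups. On the TCDD arrays 11765 genes (59.0%) were above background, and on the Cl-BBQ arrays 11624 (58.3%). Shared with the TCDD arrays were 11557 genes, which is 97.9% of the vehicle genes and 98.2% of the TCDD genes. Shared with the Cl-BBQ arrays were 11463, or 97.1% of the vehicle genes and 98.6% of the Cl-BBQ genes. Of all 19938 genes, 11365 were above background in every group, 148 in the vehicle group alone and 97 in both treated groups but not in vehicle. These counts come from the threshold rule, without a test of treatment, and 1 array below its threshold is enough to leave a gene out. Among genes described above, Gpr15 was in the last class, and Il2, Stfa3 and Cybb were above background in the vehicle group alone. Il2 ranged from 6.80 to 7.22 over the TCDD arrays and from 6.79 to 7.24 over the Cl-BBQ arrays.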

How the data were processed

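The authors deposited log2 intensities that the submitters' processing notes credit to RMA (robust multi-array averaging). The sources used here give neither its version nor its library file and run set, and the log2 scale was read from the values (2.55 to 14.16 on the vehicle arrays). The kit in the labels primes from the poly(A) tail, as for 3′ arrays, while the probes are those of a whole-transcript array. No second normalization was applied. Of 35556 probe sets, 21789 had 1 gene symbol, 1621 several and 12146 none in the probe table; a gene was represented by its brightest probe set over the 12 arrays, which decided between probe sets for 999 of 19938 genes. Names matched RefSeq by Entrez identifier for 21698 probe sets. Probe-set medians were 7.13 to 7.22. The number of arrays limits the precision.

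Levels, ranks, background calls and list counts are descriptions, without a test of treatment. The members, the lists (38 lists, 672 of 731 genes measured) and the rules were chosen with earlier results of these data known. Named genes were the 30 brightest, the 15 most variable and list members: up to 6 highest and 4 lowest of a list, and any member whose role the list is about. Genes whose promoters are printed were chosen by their motif matches, and the ribosomal protein family after its values were seen. Alternatives were other thresholds, probe-set choices, normalizations and leaving out each array. Python 3.11.15, numpy 2.4.6, pandas 2.3.3 and matplotlib 3.10.9 were used.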

Additional observations from a re-analysis of the deposited data

Results flagged for a closer look

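Each of the 265 genes named and 38 list means was searched for a vehicle array that stood far from the other 3; chance alone sets apart about 1 in 20 groups of 4. Among the genes 11 (4.15%) had such an array, and among the list means 0. Vehicle 2 stood high for Cd8a (8.47, the others 6.96 to 7.03), Ifit3 (11.73, the others 11.50 to 11.53) and Klf2 (9.67, the others 9.38 to 9.42). Vehicle 4 stood high for Il2 (7.68, the others 7.42 to 7.44), Tigit (11.17, the others 10.63 to 10.65) and Casp8 (12.46, the others 12.32 to 12.34). Vehicle 4 stood low for Satb1 (12.40, the others 12.54 to 12.56) and Zbtb16 (6.59, the others 6.82 to 6.86). Btla was low on vehicle 1 (11.61, the others 11.80 to 11.83) and Slc2a3 on vehicle 3 (7.95, the others 8.18 to 8.20). Xist was high on vehicle 3 (12.27, the others 11.83 to 11.90). The cause was not tested.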

How the results depend on the processing

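Counts of list members above background stayed within 1.5 times their value under every alternative except other thresholds. With the 99th percentile of the receptor genes, 8592 genes were above background, and the counts fell to 1 for chemokines, 1 for B cell, 3 for myeloid, 0 for neutrophil, mast cell and platelet, 0 for natural killer, 0 for erythroid and 2 for stromal markers, and 2 for genes of other tissues. With the median of the receptor genes plus 1 log2 unit, 15306 genes were above background, and the counts were 15 for chemokines, 10 for the AhR pathway, 11 for B cell, 19 for myeloid, 5 for neutrophil, mast cell and platelet, 4 for natural killer, 5 for erythroid and 11 for stromal markers, and 15 for genes of other tissues. So counts in dim lists depend on the threshold, and dim signals limit them. Without each vehicle array in turn, 11838 to 11973 genes were above background. The mean of a gene's probe sets moved 49 of 709 levels by more than 1 SD and the dimmest probe set 51. The 709 levels were those of the list genes, the 30 brightest and the 15 most variable genes. Only genes with several probe sets could move, and 39 of the 672 list genes measured had several. More levels moved than that, so some of the brightest or most variable genes outside the lists moved too. The levels of genes with several probe sets thus depend on the probe set chosen. No paired analysis was possible because the results come from no test.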

Other observations

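Genes of the sex chromosomes were read as values outside the lists. Xist, the RNA of the inactive X chromosome, measured 11.83, 11.83, 12.27 and 11.90 on vehicle 1 to 4 and ranged from 11.5 to 12.3 over all 12 arrays. The Y-linked genes Kdm5d, Eif2s3y and Uty were not above background on the vehicle arrays and ranged from 5.37 to 5.67, 3.66 to 3.98 and 4.79 to 5.10 over the 12 arrays. The labels give no sex for donors or hosts.

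Of the 6 most variable genes that were highest on vehicle 3, H60b, a ligand of the receptor NKG2D, measured 7.95, 8.26, 9.24 and 7.90 on vehicle 1 to 4. Kcnj13, a potassium channel gene, measured 8.01, 8.23, 9.07 and 7.86 and Adam4, a metalloprotease family gene, 7.30, 7.89, 8.91 and 7.79. Rpl12 was the dimmest of the 53 ribosomal protein genes at 8.26 ± 0.23.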
